A study of Sus scrofa with 17 samples.

Results

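The genes described here encode the machinery of cell division. A list of 35 symbols was looked up in the table of read counts, by the symbol that goes with each Ensembl gene of the pig assembly Sscrofa11.1. Of these, 32 had a row of their own among the 31908 genes of the table, 30 by the Ensembl gene names and 2 (MKI67 and AURKA) by their position on RefSeq genes. All 32 passed the filter on low counts, as did 14203 genes in total. CCNA2, PCNA and RRM2 had no row of their own.

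RNA was sequenced from the longissimus dorsi muscle of 17 weaned male piglets (Large White × Duroc) that were 28 days old at the start. They adapted for 5 days and were then kept for 2 weeks in individual metabolic cages, with pair-feeding. Control piglets (n = 6) received a wheat, maize and soybean meal diet without seaweed. UL piglets (n = 6) received that diet with 7% replaced by the green seaweed Ulva lactuca, and ULU piglets (n = 5) received the UL diet with 0.01% of ulvan lyase, an enzyme that cuts the ulvan polysaccharide of the seaweed cell wall. Each library is 1 piglet. The question is whether genes of DNA replication and mitosis differed between diets in growing muscle.

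Libraries held 16137365 to 26546810 counted reads, and 3 reads corresponded to between 0.130 and 0.195 CPM (counts scaled to the library total and the TMM factor of the library). Correlations of log2 CPM between libraries lay between 0.933 and 0.977, and no pair from 1 diet was close enough to be a single library counted again. Of 8 muscle fibre genes looked up, ACTA1, MYL1, CKM and TNNC2 were found, and together they took 101860 to 271589 CPM in every library, whereas MYH1, MYH2, MYH7 and TTN had no row under those symbols. The mitochondrial share of reads was 14.05% to 15.9% in control, 8.64% to 14.8% in UL and 8.002% to 11.6% in ULU libraries.

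Before a cell divides it copies its DNA once and then separates the copies. The MCM proteins form a ring-shaped helicase that is loaded on DNA in G1 phase and opens it in S phase, while enzymes such as thymidylate synthase supply nucleotides. Cyclin B with its kinase CDK1 then drives the cell into mitosis, where kinesin motors, kinetochore proteins and checkpoint kinases align and part the chromosomes. Mature muscle fibres do not divide. In a growing animal, division is found in satellite cells, the stem cells of muscle, and in the endothelial, connective tissue and immune cells between the fibres. In whole muscle, fewer dividing cells and less RNA per dividing cell cannot be told apart.

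No gene of the 32 was called in any diet comparison. A differentially expressed gene (DEG) had a Benjamini-Hochberg adjusted p under 0.05 by the quasi-likelihood F test of edgeR, and a log2(fold change) at or beyond 1 or −1. DEGs among the 32 numbered 0 for UL against control, 0 for ULU against control and 0 for ULU against UL, and 0 passed on the adjusted p alone. Over all 14203 genes, 0% were DEGs in UL vs control, 0.415% in ULU vs control and 0.0141% in ULU vs UL. On the adjusted p alone these shares were 0%, 2.98% and 0.0352%. An unadjusted p under 0.05 was found for 1 of the 32 genes in UL vs control, 4 in ULU vs control and 1 in ULU vs UL, all with a lower level in the diet named first. Over all genes 10.8%, 18.9% and 10.8% had such a p, and 5.01%, 8.78% and 4.68% in the lower direction. In no comparison was any of the 32 genes free of overlap between the piglets of the 2 diets, which occurred for 0.852%, 3.39% and 1.75% of all genes. DESeq2 on all libraries gave 0, 1 and 0 genes on the adjusted p, and the single gene was MCM4 in ULU vs control. The share of all genes that passed with DESeq2 was not computed. These DESeq2 counts therefore cannot be read as a result of the list.

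**Figure D1:**
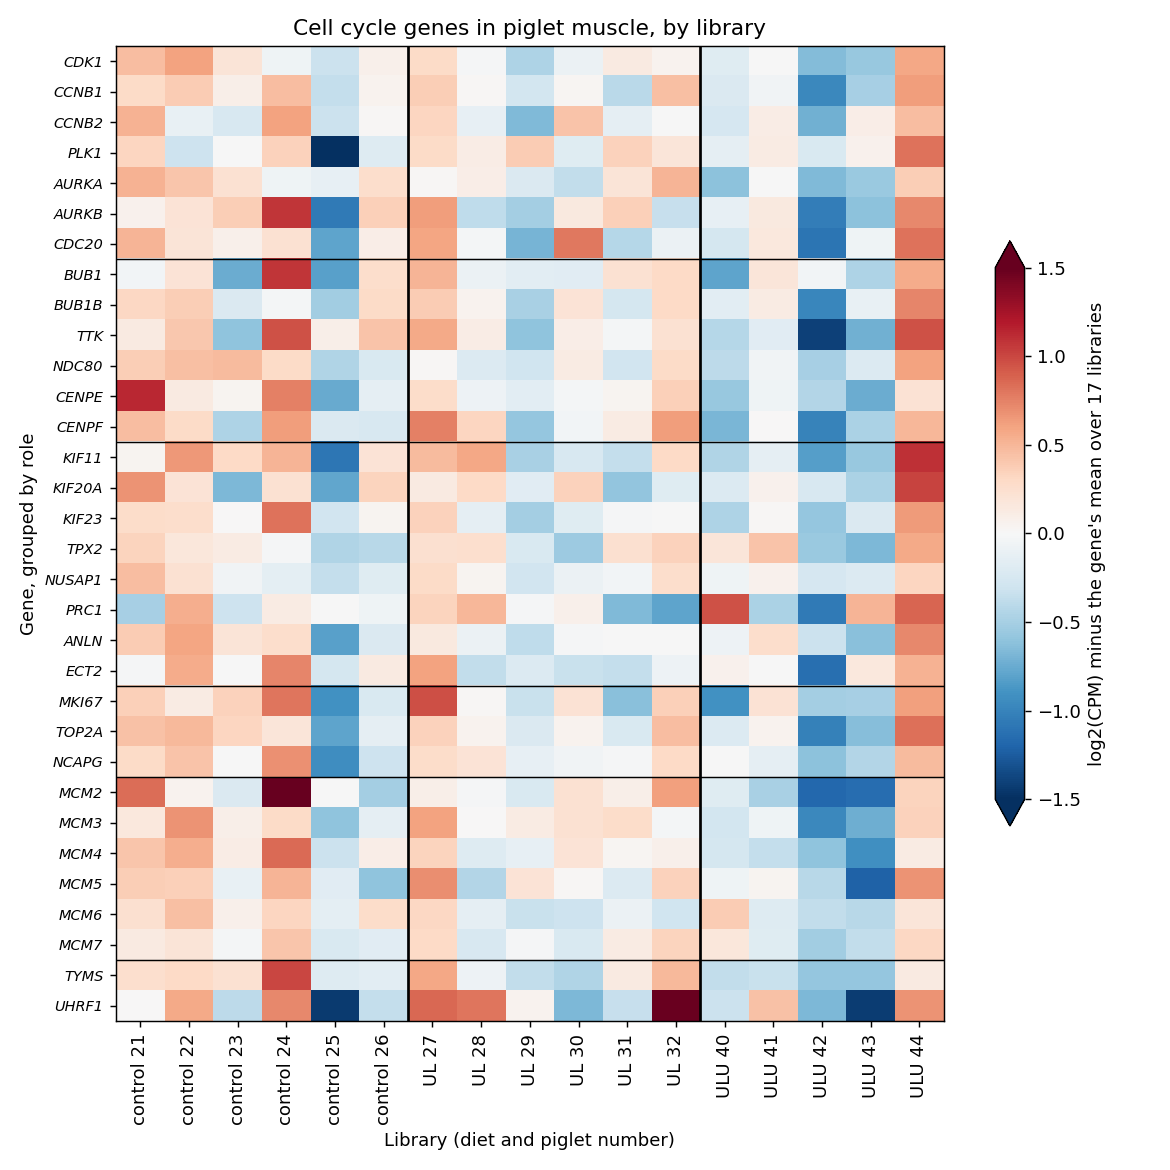
Heat map of the 32 cell cycle genes (rows, grouped by role between the horizontal lines: cyclins and kinases, checkpoint and kinetochore, spindle and cytokinesis, chromosome, MCM helicase, nucleotide supply and DNA methylation) in 17 libraries (columns). Colour gives log2(CPM) minus the mean of the gene over all libraries, with values beyond the ends of the scale shown in the end colours. Columns are mostly of 1 colour from top to bottom, red in ULU 44 and blue in ULU 42 and control 25.

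The replication helicase held the members with the smallest p-values. MCM4, one of the 6 subunits of the ring (Ensembl gene ENSSSCG00000006273, chromosome 4, 79674737 to 79687307, minus strand), had 7.12 CPM in the lowest, 10.7 in the median and 15.99 in the highest control piglet. In UL piglets it had 7.75, 9.23 and 11.2 CPM, and in the 5 ULU piglets 7.43, 6.95, 5.85, 4.68 and 9.68 CPM. Of the 5 ULU piglets, 3 were below the lowest control piglet, while ULU 44 lay among the control values. ULU vs control gave a log2(fold change) of −0.69 (SE 0.20, adjusted p = 0.0641 in edgeR), which did not pass. It passed with DESeq2 on all libraries (adjusted p = 0.0193) and on the 2 diets alone (0.0492), and with edgeR without control 25 (0.0214) or without ULU 44 (0.0429), at −0.68 to −0.84. Over all alternatives its adjusted p ranged from 0.0193 to 0.155. In ULU vs UL its log2(fold change) was −0.43 (SE 0.20, adjusted p = 0.451) and in UL vs control −0.26 (SE 0.19, adjusted p = 0.662).

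MCM2, another subunit (ENSSSCG00000011624, chromosome 13, 72630380 to 72657620), had 2.68 CPM in the lowest, 3.87 in the median and 12.7 in the highest control piglet. UL piglets had 3.25, 4.05 and 5.85 CPM, and ULU piglets 3.36, 2.73, 1.69, 1.72 and 4.81 CPM. The highest value was that of control 24, apart from the next piglet, control 21, at 6.81 CPM, and the diets overlapped. For ULU vs control it had a log2(fold change) of −0.95 (SE 0.37, adjusted p = 0.161), and −0.51 without control 24.

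MCM6 (ENSSSCG00000035564, chromosome 15, 15917042 to 15985405) had the smallest p in UL vs control. Control piglets had 41.4 CPM in the lowest, 54.8 in the median and 62.3 in the highest piglet, UL piglets 36.3, 39.4 and 56.8 CPM, and ULU piglets 59.7, 39.9, 35.5, 34.3 and 51.8 CPM. Of the UL piglets, 3 were below the lowest control piglet, and UL 27 lay among the highest controls. The log2(fold change) was −0.34 (SE 0.15, adjusted p = 0.423) in UL vs control and −0.26 (SE 0.16, adjusted p = 0.381) in ULU vs control. Only 38.0% of the exonic bases of this row lie within the RefSeq gene, so part of its reads may belong to other transcripts.

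None of the other subunits had an unadjusted p under 0.05. MCM3 had 3.61 CPM in the lowest, 5.97 in the median and 8.77 in the highest control piglet, 5.39, 6.20 and 8.34 in UL piglets, and 4.54, 5.26, 2.82, 3.30 and 7.003 CPM in ULU piglets. Its log2(fold change) in ULU vs UL was −0.48 (SE 0.24, adjusted p = 0.479), among the 3 smallest p-values there. MCM7 had 12.6, 15.3 and 19.8 CPM in the lowest, median and highest control piglet, 12.5, 15.3 and 18.6 in UL piglets, and 16.6, 12.99, 10.3, 11.4 and 18.3 CPM in ULU piglets, which overlapped throughout. MCM5 had 5.31 ± 1.47, 5.47 ± 1.55 and 4.69 ± 2.12 CPM (mean ± SD) in control, UL and ULU piglets. In ULU vs control the log2(fold change) of all 6 subunits was negative, from −0.95 to −0.16, but the intervals of MCM3, MCM5, MCM6 and MCM7 included 0, and MCM5 turned positive without ULU 43. Together the 6 subunits held 96.7 ± 17.3 CPM in control, 82.8 ± 12.3 in UL and 77.2 ± 19.8 in ULU piglets.

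Of the genes for nucleotide supply and DNA methylation, TYMS encodes thymidylate synthase and UHRF1 a protein that passes DNA methylation on to the new strand. TYMS had 2.70 CPM in the lowest, 3.67 in the median and 6.22 in the highest control piglet, 2.28, 3.18 and 4.63 in UL piglets, and 2.40, 2.47, 2.08, 2.07 and 3.40 CPM in ULU piglets. Among ULU piglets, 4 of 5 were below the lowest control piglet. ULU vs control gave a log2(fold change) of −0.61 (SE 0.25, adjusted p = 0.188), and −0.42 without control 24. Only 46.5% of the exonic bases of the TYMS row lie within the RefSeq gene. The row also shares 12.5% of its bases with ENOSF1 on the other strand, and the counting did not use strand. Part of its reads may therefore belong to other transcripts. UHRF1 varied most within diets after MCM2, with 1.60 ± 0.764 CPM in control, 2.33 ± 1.29 in UL and 1.51 ± 0.807 in ULU piglets.

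PCNA, the sliding clamp of the DNA polymerases, and RRM2, a subunit of ribonucleotide reductase, could not be read on their own. The row that covers PCNA on chromosome 17 (14125814 to 14185276) also covers TMEM230 and CDS2, and it held 80.4 ± 9.84 CPM in control, 70.7 ± 14.1 in UL and 67.7 ± 17.4 in ULU piglets. The row at RRM2 on chromosome 3 lies mostly outside the RefSeq gene, and it held 10.3 ± 2.63, 10.5 ± 2.13 and 8.79 ± 2.84 CPM. Neither was counted among the 32.

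**Figure D2:**
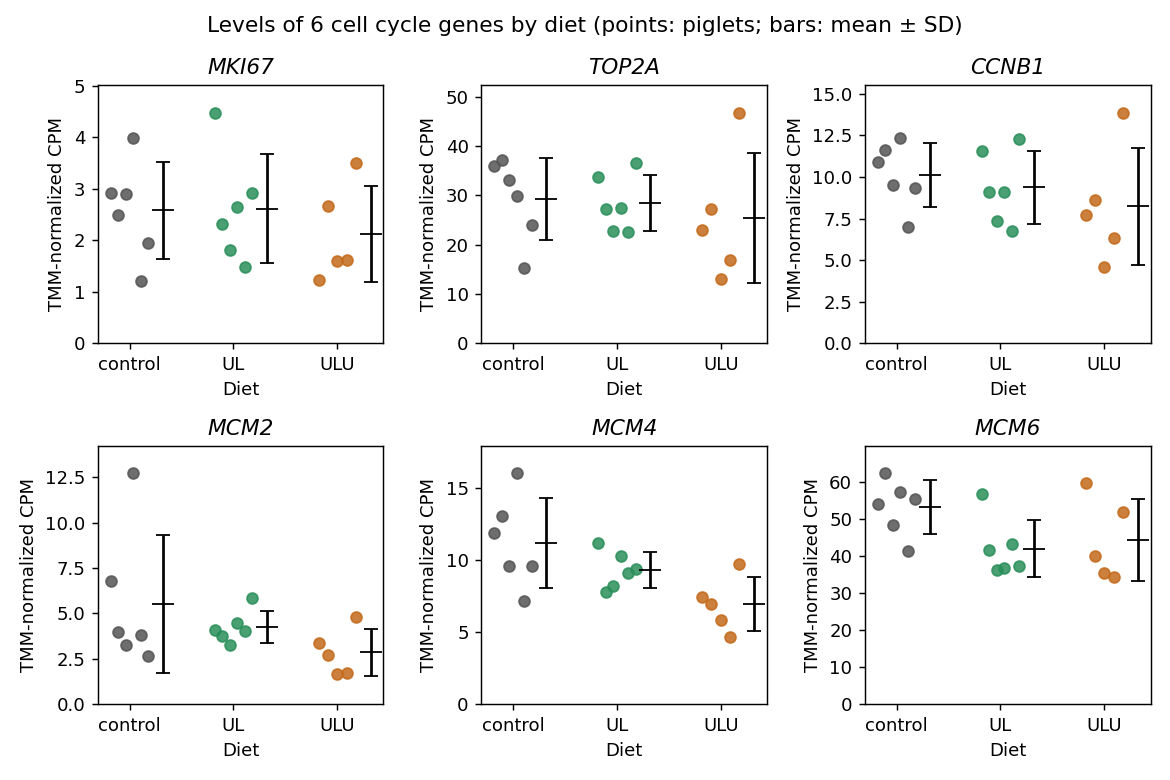
CPM of 6 genes by diet, with 1 point per piglet (6 control, 6 UL, 5 ULU) and bars for the mean ± SD. The diets overlap for every gene, and 1 ULU piglet stands above the other ULU piglets for TOP2A and CCNB1.

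The textbook markers of dividing cells overlapped between diets. MKI67, which encodes the Ki-67 protein that coats mitotic chromosomes (ENSSSCG00000026302, chromosome 14, 137266634 to 137295666), had 1.22 CPM in the lowest, 2.70 in the median and 3.98 in the highest control piglet. UL piglets had 1.48, 2.48 and 4.48 CPM, and ULU piglets 1.22, 2.66, 1.60, 1.63 and 3.50 CPM. The ranges of the 3 diets overlapped almost fully. In ULU vs control the log2(fold change) was −0.28 (SE 0.34, adjusted p = 0.690, 95% interval −0.94 to 0.38), and the interval reached nearly to −1. TOP2A, the topoisomerase that untangles sister chromosomes, had 15.3, 31.4 and 37.1 CPM in the lowest, median and highest control piglet, 22.5, 27.4 and 36.5 in UL piglets, and 23.0, 27.3, 13.04, 16.95 and 46.7 CPM in ULU piglets. ULU piglets thus held both the lowest and the highest value of the study. For TOP2A, ULU vs control gave −0.20 as log2(fold change) (SE 0.27, adjusted p = 0.725). NCAPG, a condensin subunit, had 9.82 ± 3.55 CPM in control, 9.74 ± 1.23 in UL and 8.497 ± 2.61 in ULU piglets.

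Among cyclins and mitotic kinases, CCNB1 encodes cyclin B1. It had 6.99, 10.2 and 12.3 CPM in the lowest, median and highest control piglet, 6.77, 9.09 and 12.3 in UL piglets, and 7.69, 8.64, 4.59, 6.36 and 13.9 CPM in ULU piglets. Again ULU 42 was the lowest and ULU 44 the highest of all 17. ULU vs control gave a log2(fold change) of −0.30 (SE 0.23, adjusted p = 0.526). CDK1, the partner kinase, had 10.95, 15.03 and 20.9 CPM in control, 9.96, 13.9 and 16.7 in UL, and 12.1, 13.6, 8.75, 9.26 and 20.5 CPM in ULU piglets, with a log2(fold change) of −0.28 (SE 0.21, adjusted p = 0.495). Only 23.6% of the exonic bases of the CDK1 row lie in the RefSeq gene, and part of the rest lies in RHOBTB1, so the level of CDK1 itself is uncertain. PLK1, a kinase that acts through mitosis, was the only gene of the 7 in this group above 0 in ULU vs control, at 0.32 (SE 0.29, adjusted p = 0.599). It had 0.721, 2.56 and 3.49 CPM in control, 2.42, 3.23 and 3.56 in UL, and 2.49, 2.99, 2.34, 2.86 and 4.81 CPM in ULU piglets. AURKA and AURKB, the Aurora kinases, CCNB2 (cyclin B2) and CDC20, an activator of the anaphase-promoting complex, had mean levels of 2.34 to 5.24 CPM in every diet, and their log2(fold change) lay between −0.46 and 0.020 over the 3 comparisons.

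Checkpoint and kinetochore genes comprise BUB1, BUB1B and TTK, kinases of the spindle checkpoint, NDC80, which binds microtubules, and CENPE and CENPF, large kinetochore proteins. All 6 had a negative log2(fold change) in ULU vs control, from −0.60 to −0.044, and 1 had an unadjusted p under 0.05. BUB1 turned positive without control 24, and BUB1B without control 21, control 22, control 26 or ULU 42. That gene was CENPE, named after its value was seen, with 5.27, 9.48 and 19.6 CPM in control, 8.01, 8.99 and 11.4 in UL, and 6.03, 8.51, 6.59, 5.32 and 10.4 CPM in ULU piglets. Its log2(fold change) was −0.60 (SE 0.26, adjusted p = 0.217), and −0.37 without control 21, the highest piglet. CENPF had 6.12, 8.81 and 13.1 CPM in control, 5.65, 9.93 and 14.3 in UL, and 5.29, 8.51, 4.25, 6.11 and 11.96 CPM in ULU piglets, with −0.50 (SE 0.28, adjusted p = 0.548) in ULU vs UL. The group summed to 45.3 ± 12.1 CPM in control, 42.5 ± 8.52 in UL and 36.0 ± 13.9 in ULU piglets.

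Genes of the spindle and of cytokinesis, the cleavage of the cell, were split in direction. Of the 8, 2 were above 0 in UL vs control, 3 in ULU vs control and 5 in ULU vs UL, and their sums were 100.4 ± 20.7, 94.8 ± 15.03 and 95.2 ± 30.1 CPM. KIF23, a kinesin of the midbody, had 9.15, 12.4 and 19.5 CPM in control, 7.83, 10.6 and 14.2 in UL, and 8.08, 11.2, 7.45, 9.61 and 17.3 CPM in ULU piglets. Its log2(fold change) in UL vs control was −0.29 (SE 0.21, adjusted p = 0.671), the third smallest p there, and −0.13 without control 24. NUSAP1, a spindle protein, had 23.4, 28.0 and 41.3 CPM in control, 24.7, 30.1 and 36.8 in UL, and 28.7, 31.5, 25.1, 26.0 and 37.5 CPM in ULU piglets, and the ULU values lay within the control range. The motors KIF11 and KIF20A, the spindle factor TPX2, the actin-binding ANLN and the cytokinesis factor ECT2 had mean levels of 6.61 to 15.3 CPM, and −0.31 to 0.13 as log2(fold change). PRC1, which bundles microtubules between the separating chromosomes, rested on 4 to 20 reads per library and shares 79.5% of its bases with VPS33B, so its 0.217 to 0.874 CPM are not a reliable level.

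**Figure D3:**
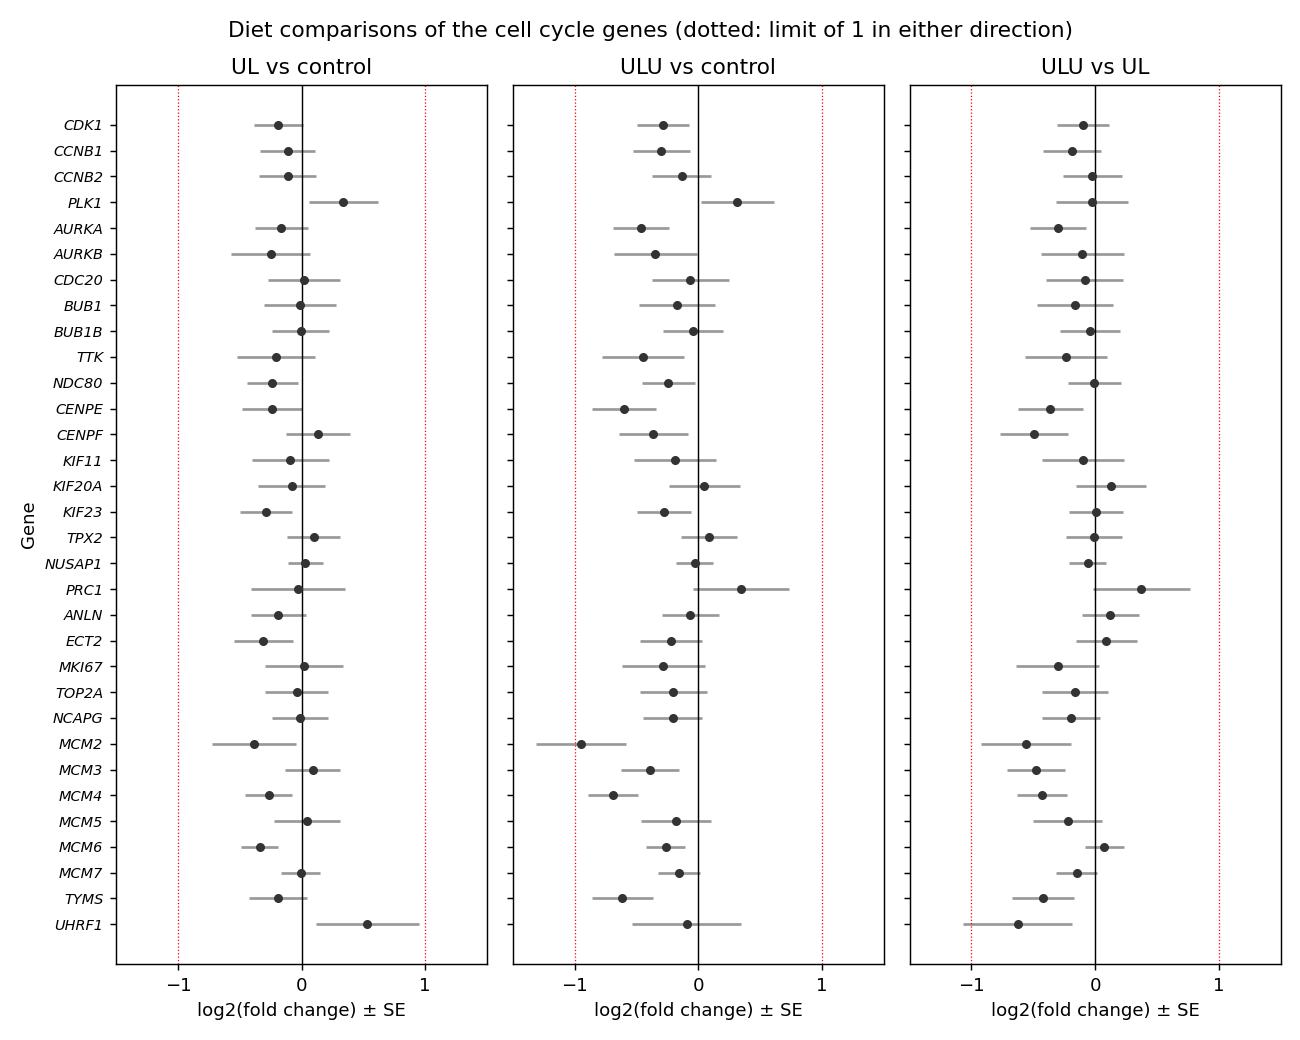
Log2(fold change) ± SE of the 32 genes (rows) in the 3 diet comparisons, 1 per panel, from edgeR on 17 libraries. Dotted lines mark the limit of 1 used for DEGs, which no point reaches. Most points in the middle panel lie left of 0, with MCM2 the farthest.

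Across the list, more genes lay below 0 than above. In UL vs control 23 were lower and 9 higher, with a median log2(fold change) of −0.085, against −0.0027 over all genes tested, of which 49.5% were higher. In ULU vs control 28 were lower and 4 higher (median −0.21, all genes −0.028, 47.0% higher), and in ULU vs UL 26 were lower and 6 higher (median −0.12, all genes −0.021, 47.0% higher). The comparisons share libraries, and the genes varied together between piglets, so these counts are not independent. Single piglets moved them. Without ULU 42, the ULU vs UL count became 16 lower and 16 higher (median 0.0023). Without ULU 44 it became 30 and 2 (median −0.38), and the count of unadjusted p-values under 0.05 became 9 there and 14 in ULU vs control. The share of all genes with such a p was not computed without ULU 44. The counts of 9 and 14 therefore cannot be read as a result of the list. In UL vs control the counts became 17 and 15 without control 24 and 28 and 4 without control 25. The muscle fibre genes moved the other way: 4 of 4 were higher in ULU vs control, with a smallest adjusted p of 0.0666, and they summed to 101860 to 168539 CPM in control, 134461 to 172364 in UL and 146513 to 271589 in ULU piglets. Markers of other cells were split in ULU vs control. Lower were 7 of 7 fibro-adipogenic genes, 4 of 4 adipocyte genes and 6 of 7 leukocyte genes. So were 5 of 6 smooth muscle and pericyte genes, 5 of 7 endothelial genes and 2 of 3 Schwann cell genes. In these lists 0 genes passed on the adjusted p. Satellite cell and myoblast genes went the other way, with 5 of 7 higher and 1 past the adjusted p. Of the erythroid genes, 2 of 2 were higher. Fibro-adipogenic genes summed to 2681 to 5806 CPM in control, 3367 to 6598 in UL and 2275 to 5838 in ULU piglets, and leukocyte genes to 37.8 to 154, 50.9 to 104.5 and 22.9 to 142 CPM. The part of these lists in the counts was not tested, nor was that of the lower mitochondrial share in ULU.

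The summed level of the 32 genes was 335 ± 69.9 CPM in control, 309 ± 48.4 in UL and 288 ± 91.9 in ULU piglets. Control piglets had 387, 390, 311, 401, 223 and 300 CPM in the order 21 to 26. UL piglets ranged from 248 through a median of 295 to 386 CPM, and ULU piglets 40 to 44 had 285, 299, 199, 222 and 434 CPM. The ULU group therefore held the lowest sum and the highest sum of all 17 libraries, and the difference between diets was smaller than the spread within each.

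Levels of the list rose and fell together from library to library. Each library is 1 piglet, so animal and library cannot be told apart. In ULU 44 all 32 genes were above the ULU mean, and 11 had their highest value of the study there. Control 24 was the highest library for 10 genes. ULU 42 was the lowest library for 16 genes, control 25 for 11 and ULU 43 for 5. The heat map shows these libraries as columns of nearly 1 colour.

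To measure this, each gene was expressed as log2 CPM minus its diet mean, and these deviations were correlated between genes over the 17 libraries. Over the 496 pairs of the 32 genes the median Pearson r was 0.66 (Spearman rho 0.62), and 493 pairs were above 0. Over all pairs of the 14203 genes tested the median was −0.002, and 49.7% were above 0. The median was 0.71 between the replication genes (MCM, TYMS and UHRF1), 0.67 between the mitosis genes and 0.62 between a gene of one kind and a gene of the other. Genes of S phase and of mitosis thus varied with each other nearly as much as within their own kind. CCNB1 followed the mean of the other 31 genes most closely (r = 0.94), then TOP2A (0.93), NCAPG (0.92) and KIF23 (0.90), while PRC1 did so least (0.31). The NCAPG row shares 24.6% of its bases with LCORL, so part of its reads may belong to that gene. All the points come from the same libraries and share their depth, so r is given as a description.

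The pattern held in part without the extreme piglets. The median r was 0.57 without ULU 44, 0.67 within control and 0.52 within UL piglets. It was 0.43 when ULU 42, ULU 44 and control 25, the piglets farthest from their diet means, were left out together. Libraries with more counted reads had lower levels of the list (r = −0.59, rho = −0.59, and −0.52 without the 2 libraries farthest in depth). With log2 counted reads removed the median r was 0.57. Depth was uneven between diets. The deepest libraries were ULU 43 (26546810 reads), ULU 40 (24775501), control 25 (23433672) and ULU 42 (22320520). The deepest UL library, UL 29, held 20896796, and the shallowest of all was ULU 41 (16137365). The part of depth, in the diet comparisons as well, was not tested further.

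**Figure D4:**
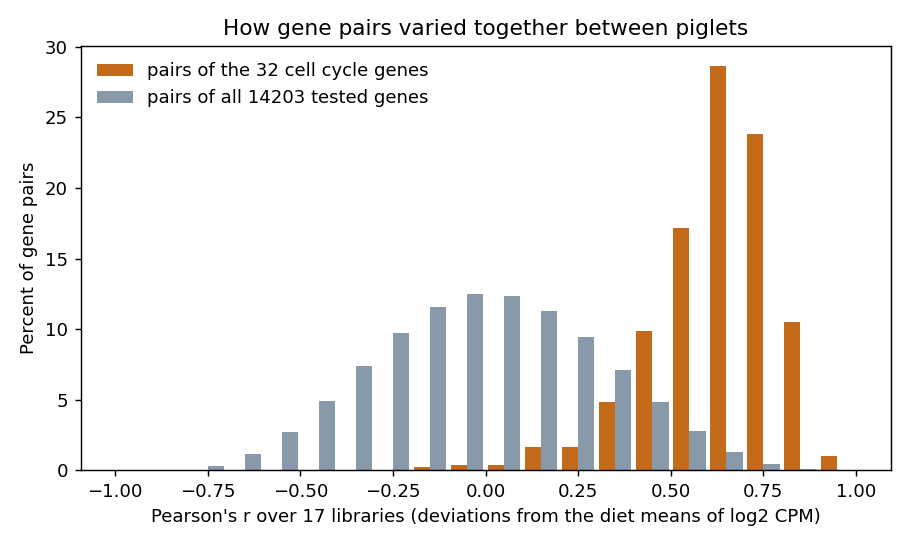
Percent of gene pairs (vertical axis) by Pearson's r of their deviations from the diet means over 17 libraries (horizontal axis), for the 496 pairs of cell cycle genes and for all pairs of 14203 genes. The cell cycle pairs centre on 0.66 and all pairs on 0.

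Other genes of the cell cycle were looked up by list. Further mitosis genes (49 tested) followed the 32 genes over piglets with r = 0.99 (rho 0.98, and 0.98 without the 2 farthest libraries), and licensing and replication genes (31 tested), such as the ORC, GINS and RFC subunits, with r = 0.83 (rho 0.88). The G1 cyclins and kinases (9 tested) had r = 0.62 (rho 0.50, and 0.41 without 2 libraries) and the transcription factors (15 tested) 0.54 (rho 0.49, and 0.34). The inhibitors (14 tested), among them CDKN1A, had r = 0.12 (rho 0.086, and −0.14). The closest genes outside the list were HMGB2 (r = 0.95), a chromatin protein, PRR11 (0.92), PCLAF (0.91), which binds PCNA, UBE2C (0.91), the ubiquitin enzyme of the anaphase-promoting complex, and RACGAP1 (0.91), a cytokinesis factor. They were ranked over the same 17 libraries. The rows at PCNA (0.88) and RRM2 (0.91) also followed.

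The lists of cells that could divide or surround the fibres were less alike to the 32 genes. Satellite cell and myoblast genes (7 tested) had r = −0.078 (rho −0.14, and −0.41 without the 2 farthest libraries), endothelial genes 0.21 (rho 0.21, and 0.37), leukocyte genes −0.14 (rho −0.056, and −0.18), and fibro-adipogenic genes 0.20 (rho −0.078, and −0.50). Smooth muscle and pericyte genes had 0.52 (rho 0.43, and 0.46 without 2 libraries). Within that list r was 0.60 for NOTCH3, 0.50 for ACTA2, 0.43 for KCNJ8, 0.30 for MYH11, 0.013 for PDGFRB and −0.25 for RGS5. Of the satellite cell and myoblast genes, PAX7 had 0.45, MYOD1 −0.089, MYF5 −0.17 and MYOG −0.26, and the rest were not read singly. A total of 19 relations was computed for lists and library measures, besides those of single genes. From whole muscle, the cells that carry the division genes cannot be told.

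**Figure D5:**
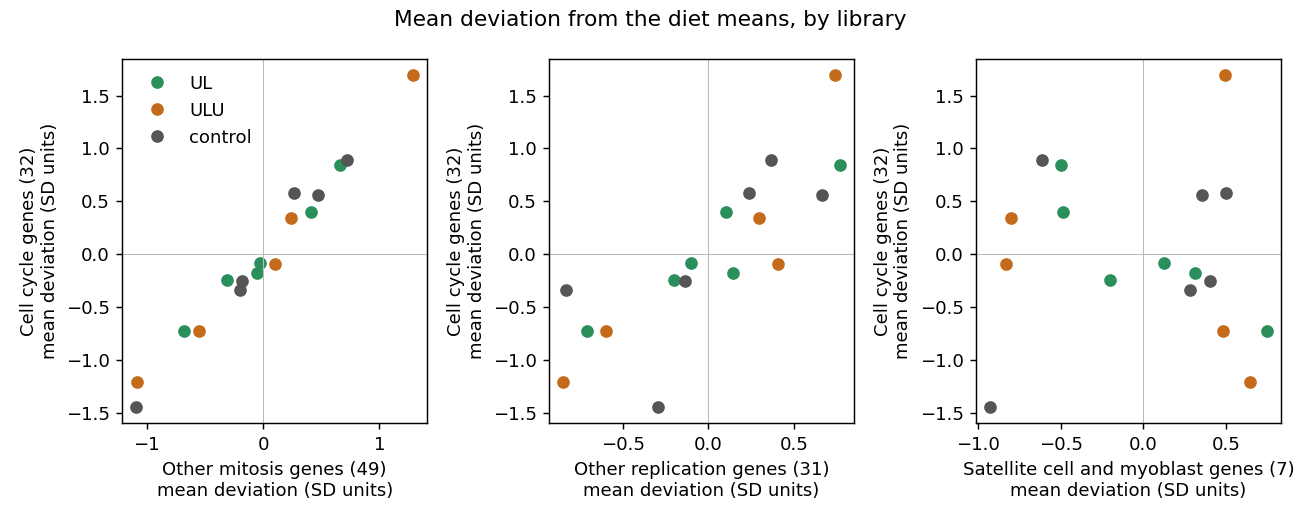
Mean deviation from the diet means of the 32 cell cycle genes (vertical axis) against that of 49 other mitosis genes, 31 other replication genes and 7 satellite cell and myoblast genes (horizontal axes), in SD units, with 1 point per library coloured by diet. The points lie along a line for the mitosis genes (r = 0.99) and scatter for the satellite cell genes (r = −0.078).

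By diet, the other lists held few calls. In ULU vs control 47.0% of all genes tested were higher, 2.98% passed on the adjusted p and 18.9% had an unadjusted p under 0.05. Of the 49 mitosis genes, 35 were lower and 14 higher in ULU vs control, with a median of −0.17, and 1 passed on the adjusted p, with 4 at an unadjusted p under 0.05. Of the 31 licensing and replication genes, 27 were lower and 4 higher (median −0.16) and 0 passed, at a smallest adjusted p of 0.112 and with 3 at an unadjusted p under 0.05. The G1 cyclins and kinases (7 lower, 2 higher), transcription factors (8 lower, 7 higher) and inhibitors (9 lower, 5 higher) had 0 genes that passed, with 1, 2 and 2 at an unadjusted p under 0.05. In UL vs control and ULU vs UL none of these 5 lists had a gene with an adjusted p under 0.05, with smallest values of 0.352 and 0.344.

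CDC25A, a phosphatase that releases the cyclin-dependent kinases from inhibition, was the mitosis-list gene that passed, and it rose. Control piglets had 4.36, 5.37 and 6.74 CPM in the lowest, median and highest piglet, UL piglets 5.87, 6.14 and 8.44, and ULU piglets 8.60, 8.38, 8.45, 13.3 and 6.57 CPM. ULU 44, with the highest levels of the list, had the least CDC25A of the ULU piglets. ULU vs control gave a log2(fold change) of 0.73 (SE 0.18, adjusted p = 0.0336 in edgeR), under the limit of 1, and it passed under 15 of 24 alternatives, with 0.55 (adjusted p = 0.105) without ULU 43. Among the satellite cell genes MYOD1, the transcription factor of the muscle lineage, rose in ULU vs control by 0.86 (SE 0.19, adjusted p = 0.0258 in edgeR), from 46.5, 53.3 and 63.2 CPM in control to 84.0, 66.1, 82.0, 171 and 96.4 CPM in ULU piglets, with no overlap. It passed under 21 of 24 alternatives, but not without ULU 43 (adjusted p = 0.0652). UL piglets had 97.2, 81.5, 90.5, 73.9, 60.9 and 58.7 CPM of MYOD1, which overlapped both other diets. No satellite cell and myoblast gene passed in UL vs control or ULU vs UL. The smallest adjusted p of that list in edgeR was 0.351 and 0.508. PAX7, the marker of satellite cells, had 6.05 ± 1.32 CPM in control and 7.34 ± 1.63 in ULU piglets (log2(fold change) 0.28, adjusted p = 0.415). For PAX7, UL piglets ranged from 6.40 to 8.70 CPM.

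The regulators of cell cycle entry and exit did not pass. CDKN1A, which encodes the inhibitor p21, had 370 ± 130 CPM in control, 325 ± 241 in UL and 453 ± 142 in ULU piglets (log2(fold change) in ULU vs control 0.29, SE 0.36, adjusted p = 0.704). CDKN1B (p27) had 9.38 ± 0.947, 8.05 ± 0.758 and 8.64 ± 2.07 CPM, and CDKN1C (p57) 8.27 ± 2.17, 9.64 ± 2.93 and 7.32 ± 2.18 CPM. Cyclin D1 (CCND1) had 1.34 ± 0.343, 2.01 ± 0.914 and 1.37 ± 0.269 CPM. E2F1, which switches on S phase genes, had 0.553 ± 0.243, 0.538 ± 0.2004 and 0.555 ± 0.296 CPM, and MYBL2, a regulator of mitotic genes, 1.55 ± 0.430, 1.30 ± 0.162 and 1.28 ± 0.747 CPM. FOXM1, another such regulator, did not pass the filter and had at most 0.715 CPM.

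Per kilobase of gene length, the 32 genes had a median of 1.59 CPM per kb over all libraries, close to the 1.76 of all genes tested. NUSAP1 (8.04), MCM6 (5.56) and MCM7 (5.22 CPM per kb) were the highest and PRC1 (0.0575), MKI67 (0.219) and PLK1 (0.376 CPM per kb) the lowest. All 3 of the highest, and PRC1 and PLK1 of the lowest, are among 9 genes with a doubtful row. Such a row shares at least 10% of its bases with another Ensembl gene or lies less than 50% inside the RefSeq gene. The rest of the 9 are CDK1, ECT2, NCAPG and TYMS. Without these 9, the median log2(fold change) of the other 23 genes was −0.090, −0.24 and −0.16 in the 3 comparisons and the median r was 0.68. The median coefficient of variation within diets was 29.9%, against 24.3% over all genes tested, and ran from 18.2% for NUSAP1 to 56.6% for MCM2.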

How the data were processed

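Single reads of 75 nt (1 library per piglet) were trimmed with fastp and aligned with HISAT2 by the authors, and the deposited values are raw counts per gene, not normalized, from featureCounts 2.0.1 (per the file headers, annotation Ensembl 104 of Sscrofa11.1, no option for strand). The submitters' processing notes name Subread 1.5.1 and DESeq2 1.34.0. A column with the authors' mean over all libraries, of another kind, was not used.

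Gene symbols came from a table of Ensembl gene names (15029 genes) and otherwise from a RefSeq gene of Sscrofa11.1 with at least 50% of the exonic bases and of the RefSeq gene covered (2339 genes). Counts were tested with edgeR 4.0.16 in R 4.3.3 (TMM, filterByExpr, quasi-likelihood F test, 1 model of 17 libraries, Benjamini-Hochberg over 14203 genes), whereas the study used DESeq2, run here as an alternative (DESeq2 1.42.0). The SE is the absolute log2(fold change) divided by the square root of F, and 95% intervals span 1.96 SE. Log2 CPM used a prior count of 2. Depth limits cover counting error only. Scores are the mean of standardized deviations from diet means. The tests were checked on simulated counts. Figures were drawn with matplotlib 3.10.9.

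Values were given for genes with an adjusted p under 0.05 or no overlap, the 3 smallest p-values per comparison, the 3 highest and lowest per kilobase, and the textbook markers. The members and lists were chosen with earlier results of these data known. Promoter and protein sequences were not used here.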

Additional observations from a re-analysis of the deposited data

Results flagged for a closer look

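In 99 sets of values (each of the 32 genes, and their sum, in each diet), the highest or lowest piglet was set against its neighbours by Dixon's criterion, which chance meets in about 1 of 20 sets, and 6 met it. In ULU 44, PLK1 had 4.81 CPM (next ULU piglet 2.99), KIF11 19.6 CPM (next 8.38) and KIF20A 13.3 CPM (next 6.89). In UL 27, ECT2 had 15.8 CPM (next UL piglet 9.81) and MCM6 56.8 CPM (next 43.1). In control 24, TYMS had 6.22 CPM (next control piglet 3.82). Each was the highest piglet of its diet.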

How the results depend on the processing

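The count of cell cycle genes called DEG was 0 in every comparison under all 24 alternatives: DESeq2 on 2 diets or all libraries, edgeR on 2 diets, RLE size factors, library size alone, no filter, a stricter filter (CPM above 1 in at least 5 libraries), and each of 17 libraries left out. On the adjusted p alone the count became 1 (MCM4) in ULU vs control with DESeq2 on 2 diets (1) and on all 17 libraries (1), and ran from 0 to 1 with a library left out. MCM4 was then −0.68, −0.68, −0.79 without control 25 and −0.84 without ULU 44. The share of all genes that passed was not computed for these alternatives. A count of 1 therefore cannot be read as a result of the list. The median r moved to 0.52 within UL and to 0.43 without ULU 42, ULU 44 and control 25, and ran from 0.56 to 0.68 with 1 library left out. These r settings and the removal of doubtful rows were chosen after seeing the data.

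With a library left out, the median log2(fold change) ran from −0.19 to −0.012 in UL vs control, −0.46 to −0.12 in ULU vs control and −0.38 to 0.0023 in ULU vs UL. Over all 32 genes, fitted values changed sign 57 times in UL vs control (16 genes), 28 times in ULU vs control (10 genes) and 55 times in ULU vs UL (15 genes), none of them with an adjusted p under 0.05. MCM2, MCM4, TYMS and CENPE were not among the 10 genes that changed sign in ULU vs control. They were picked for an unadjusted p under 0.05 in these same data, so this adds no support. With library size alone the median of all genes was −0.082, −0.21 and −0.13, against −0.0027, −0.028 and −0.021 with TMM, and it gave 28, 30 and 29 lower genes. The cause was not tested. No paired analysis was possible because the diets share no piglet number. PRC1 had only 4 to 20 reads per library, on a row that shares 79.5% of its bases with VPS33B.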
